A study of Mus musculus with 15 samples.

Results

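The MAP kinase cascades and the immediate early genes they act on were followed in the liver through 39 genes, chosen as members of the ERK, JNK and p38 branches, their stress adaptors and phosphatases, and the transcription factors that lie below them. Of the 39 genes, 36 had a probe set that the array annotation assigns to that gene alone, and they are described here among 18193 genes tested. Hras, Mapk3 and Map2k7 were not analysed here. The choice used gene names and no measured value, although it was made with earlier results of these arrays known.

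Livers came from 3 groups of 5 male mice, with 1 mouse per array of the Affymetrix mouse whole genome type. XKA mice were KKAy mice given the Chinese herbal medicine Xiao-Ke-An (XKA) by oral gavage at 1.5 g/kg once a day for 32 days. KKAy model mice, of the same strain, received distilled water over the same period. C57BL/6J mice, the non-diabetic controls, also received distilled water. All mice were 10 weeks old when gavage began. The KKAy mouse carries the yellow obese (Ay) allele of the agouti gene and becomes obese and diabetic. Both KKAy groups ate a high-fat diet and came from one supplier, whereas the C57BL/6J mice ate normal chow and came from another, so strain, diet and supplier cannot be told apart in any comparison with C57BL/6J. The methods describe killing in the fed state and also blood taken in the fasting state, and the feeding state of the livers was not tested. Each array measures a piece of whole liver, in which fewer cells of a type and less RNA per cell cannot be told apart.

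A MAP kinase cascade is a relay of 3 kinases, in which a MAP kinase kinase kinase phosphorylates a MAP kinase kinase, which in turn phosphorylates the MAP kinase. Growth factors and insulin drive the ERK branch through Ras and Raf, while inflammatory cytokines and cellular stress drive the JNK and p38 branches. The end kinases phosphorylate transcription factors such as ELK1, ATF2 and JUN, and genes such as Fos and Egr1 are transcribed within minutes without new protein synthesis, which is why they are called immediate early genes. Most of this signalling runs through phosphorylation, which an array does not measure. The values below are mRNA levels only.

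Promoter windows were read from RefSeq (GRCm38.p6), from 250 bases before to 50 bases after the annotated start, for 35 of the 39 genes. No window was read for Egr1, Myc, Dusp4 and Mapk3. The windows of Fos, Dusp1 and Gadd45g are printed because these response genes varied widely between mice and carry 1 of the searched motifs each. Capitals mark TATAAA (the TATA box) in Fos and Gadd45g and TGACGTCA (the cAMP response element, CRE) in Dusp1. The windows lie at chr12:85473640-85473939 on the plus strand, chr17:26508423-26508722 on the minus strand and chr13:51846425-51846724 on the plus strand, each written 5′ to 3′ along its gene.
Fos: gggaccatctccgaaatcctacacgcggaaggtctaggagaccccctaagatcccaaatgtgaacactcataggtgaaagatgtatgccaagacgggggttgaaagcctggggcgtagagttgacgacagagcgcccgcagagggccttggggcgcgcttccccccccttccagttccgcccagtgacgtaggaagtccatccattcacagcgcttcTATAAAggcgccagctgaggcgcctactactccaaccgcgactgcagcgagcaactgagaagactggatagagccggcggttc
Dusp1: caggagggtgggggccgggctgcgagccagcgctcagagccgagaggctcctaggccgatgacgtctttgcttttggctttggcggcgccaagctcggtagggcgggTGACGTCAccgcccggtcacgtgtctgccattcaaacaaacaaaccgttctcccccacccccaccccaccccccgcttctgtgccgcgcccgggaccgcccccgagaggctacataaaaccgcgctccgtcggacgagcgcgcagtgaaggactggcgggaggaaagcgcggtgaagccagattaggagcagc
Gadd45g: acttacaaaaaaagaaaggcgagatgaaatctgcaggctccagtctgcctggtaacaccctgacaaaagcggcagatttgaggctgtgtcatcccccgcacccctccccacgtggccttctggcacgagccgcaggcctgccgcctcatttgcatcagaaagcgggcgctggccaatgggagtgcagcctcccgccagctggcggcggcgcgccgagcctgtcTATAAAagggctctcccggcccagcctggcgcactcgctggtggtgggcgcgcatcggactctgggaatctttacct

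The Fos and Gadd45g TATA boxes begin 33 and 27 bases before the start, and the Dusp1 element begins 143 bases before it. Both strands were searched, and no matches of different motifs overlapped in a window of these genes. TATAAA was present in 7 of the 35 genes with a window and in 13.6% of all 32851 promoter windows. Some genes have several windows, 43 in all for the 35 genes, so counts of genes and shares of windows are not on the same unit. TGACGTCA was present in 2 of the genes (Dusp1 and Braf) and in 1.79% of all windows. The EGR site (GCGTGGGCG or GCGGGGGCG) was present in 3 genes, Atf2, Fosl2 and Sos2, and in 3.47% of all windows. The AP-1 site (TGACTCA or TGAGTCA, 5.2% of all windows) and the CArG box that serum response factor binds (1.63%) had no match in the windows that were read. Egr1, Myc, Dusp4 and Mapk3 were not searched for any of the motifs. These matches describe the letters of the window and say nothing of binding.

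The deposited array medians ran from 136 to 161 in XKA mice, from 127 to 162 in KKAy model mice and from 146 to 182 in C57BL/6J mice, and every array was scaled to a median of 1000. All levels below are scaled signals on a linear scale, given in the order of the mouse numbers 1 to 5, and all changes are log2 differences from limma. A gene's values are those of its brightest probe set unless another is named. After scaling, the median log2 change over all genes was -0.06 for XKA against KKAy model, 0.15 for KKAy model against C57BL/6J and 0.10 for XKA against C57BL/6J. The 9 hepatocyte markers were bright in all groups, with summed signals of 3059500 to 4074060 in XKA, 3075130 to 4850450 in KKAy model and 2668070 to 4308190 in C57BL/6J mice. The acute phase list was higher in KKAy model mice, and XKA mice overlapped with both other groups. Its 18 genes summed to 3782750 to 9118690 in XKA, 4903870 to 11624400 in KKAy model and 3021840 to 4638720 in C57BL/6J mice. Of the 18, 11 rose in KKAy model against C57BL/6J mice, beside 10.5% of all genes. In XKA against C57BL/6J mice 4 rose, beside 5.49%. Hamp went the other way, with means of 209305 in KKAy model and 260247 in C57BL/6J mice. Neutrophil markers (6 genes) summed to 7535 to 24169.9 in XKA, 14260.1 to 30559 in KKAy model and 6603 to 11552 in C57BL/6J mice. S100a8 differed most, with means of 6554 in XKA, 12129 in KKAy model and 2661 in C57BL/6J mice. In KKAy model against C57BL/6J mice 5 of the 6 had a change above 0, but only 1 was called as higher. Camp, under the array median, averaged 214 in KKAy model and 237 in C57BL/6J mice. Endothelial markers (7 genes) summed to 48927 to 84839 in XKA, 65786 to 84449 in KKAy model and 45201 to 62093 in C57BL/6J mice, with no overlap between KKAy model and C57BL/6J. Clec4g and Stab2 made up most of that sum, and the list was mixed. In KKAy model against C57BL/6J mice 4 of the 7 genes had a change above 0 and 2 were called as higher, while Lyve1 and Cdh5 had lower means. Red cell precursor markers (3 genes) summed to 22832 to 31989 in XKA, 25444 to 42215 in KKAy model and 7770.4 to 16432 in C57BL/6J mice, with both KKAy groups above C57BL/6J. Most of that sum was Alas2. Slc4a1 went the other way, with means of 1630 in XKA, 1345 in KKAy model and 2204 in C57BL/6J mice, and Hba-a1 lay under the array median. The part of these lists in the results below was not tested.

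The first question was how the cascades of the diabetic model differ from those of the normal liver. Of the 36 genes, 8 rose and 1 fell in KKAy model against C57BL/6J mice (limma, adjusted p under 0.05). Over all genes tested, 12.8% were called in this comparison, 10.5% as higher and 2.36% as lower. The 9 of 36 stood above the share of all genes, but that share includes many dim genes. With dim genes left out, 9 of 35 were called beside 2594 of 12381 genes, which is a nearer share. The median change of the 36 genes (0.15) equalled that of all genes. Without rescaling, 5 of the 36 were called as higher and 2 as lower, beside 1118 and 1017 of all genes. The groups did not overlap for 7 of the 36 genes, 6 higher and 1 lower, against 10.5% of all genes. The branch counts were 3 of 7 higher in the ERK branch, 0 of 4 in the JNK branch, 0 of the 2 kinases shared by JNK and p38, 1 of 8 in the p38 branch, 1 of 3 stress adaptors, 0 of 3 phosphatases, and 3 higher and 1 lower of 9 transcription factors. By an unadjusted p under 0.05 in limma, 1 JNK gene and 2 phosphatases passed, beside 25.1% of all genes. A further 3 genes, Braf, Map3k7 and Mapk8, were called only on a dimmer probe set, as described with each gene.

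The second question was whether XKA moved these genes in the diabetic liver. None of the 36 genes passed the adjusted threshold in XKA against KKAy model mice in limma, and 0.176% of all genes did. Sos2 and Mapk12, 2 of 36, passed at an unadjusted p under 0.05 in limma, where 8.58% of all genes passed. The same 2 genes passed the unadjusted Dunnett comparisons that the methods name, beside 946 of all 18193 genes. None passed the Dunnett comparisons after Benjamini-Hochberg adjustment. No gene of the 36 had groups that did not overlap, against 1.45% of all genes. The median change of the 36 genes was -0.03. In XKA against C57BL/6J mice, which share their controls with the model comparison, 4 genes rose and 1 fell, against 7.37% of all genes called, 5.49% as higher and 1.88% as lower. Here 3 genes had groups that did not overlap, 1 higher and 2 lower, against 6.95% of all genes. Braf, Fosl2, Gadd45b, Jun and Map3k7 were called in this comparison only on a dimmer probe set.

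**Figure D1:**
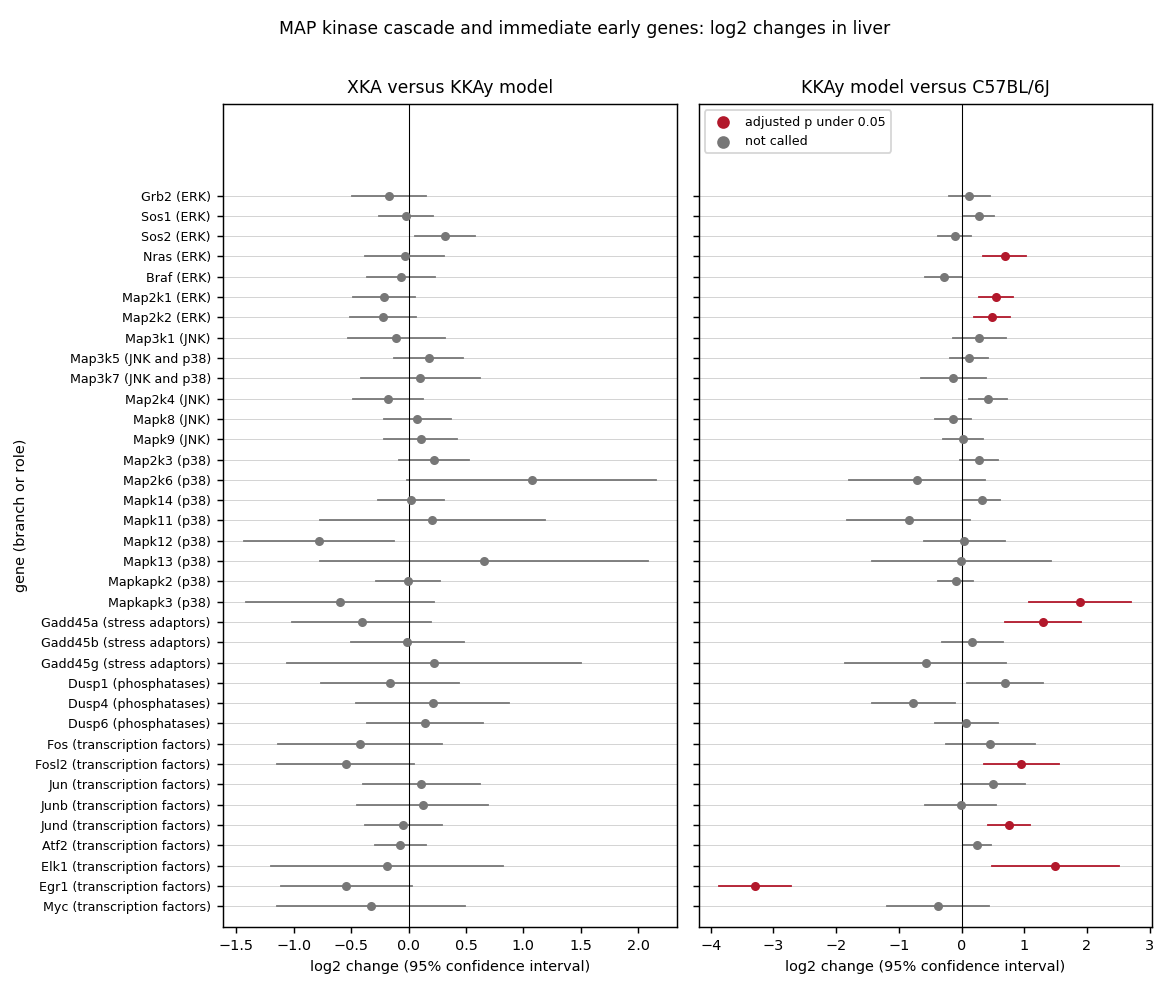
Log2 change with its 95% confidence interval for the 36 genes, in order of branch, for XKA versus KKAy model (left) and KKAy model versus C57BL/6J (right). Red points passed an adjusted p of 0.05 in limma. No point is red on the left, and on the right 8 red points lie above 0 and Egr1 lies at -3.29.

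Egr1, a zinc finger transcription factor and one of the earliest genes to respond to growth factors, was the only gene of the 36 that fell against C57BL/6J mice. Its signal was 2376, 1610.1, 1764, 1909 and 1693 in XKA mice, 3321, 3594, 3252, 2052 and 1791 in KKAy model mice and 21069, 31169, 25085, 53599 and 14682 in C57BL/6J mice. Every C57BL/6J mouse lay above every KKAy mouse, and the lowest C57BL/6J value was several times the highest KKAy value. These values come from 1417065_at, the only Egr1 probe set, and strain differences in the sequence under its probes were not tested. The log2 change was -3.29 (SE 0.27, adjusted p = 1.10e-07) in KKAy model and -3.84 (SE 0.27, adjusted p = 1.78e-08) in XKA against C57BL/6J mice. XKA mice averaged 1871 ± 303 and KKAy model mice 2802 ± 819 (SD, n = 5 each). That difference of -0.54 had a 95% interval of -1.11 to 0.03 and did not pass (adjusted p = 0.611).

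No other transcription factor gene of the 9 was called as lower in limma. Fos, the AP-1 subunit induced by serum, read 1988, 1812, 1431, 737 and 1788 in XKA, 1579.9, 2114, 3151, 1469.6 and 1909 in KKAy model and 847, 1848, 2347, 1707 and 953 in C57BL/6J mice. All 3 groups overlapped and lay within a few fold of the array median, and the change in KKAy model against C57BL/6J mice was 0.46 (-0.25 to 1.17, adjusted p = 0.447). Jun, its most common partner, averaged 6978 ± 1929 in XKA, 6537 ± 1941 in KKAy model and 4535 ± 1305 in C57BL/6J mice, with a change of 0.50 between KKAy model and C57BL/6J mice (adjusted p = 0.205) and of 0.72 (adjusted p = 0.0429) without KKAy model mouse 1. One C57BL/6J mouse, number 4, read 6795, above the other 4. On the second Jun probe set, 1448694_at, all XKA mice lay above all C57BL/6J mice, and the change of 0.82 passed (adjusted p = 0.0401 over all probe sets), while that of 0.58 in KKAy model against C57BL/6J mice did not (adjusted p = 0.132). Junb averaged 2165 ± 652, 1941 ± 287 and 2039 ± 655 in XKA, KKAy model and C57BL/6J mice, with a change of -0.01 between KKAy model and C57BL/6J mice (-0.58 to 0.56). Myc, a growth-related immediate early factor, averaged 1900.0 ± 1136, 2048 ± 550.4 and 2675 ± 807 in the same order, and its change of -0.37 between KKAy model and C57BL/6J mice did not pass (adjusted p = 0.620).

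The AP-1 subunits Jund and Fosl2 rose in KKAy model mice. Jund, the JUN family member that resting cells already express, read 32699, 36827, 29111, 35653 and 19519 in XKA, 25561, 29692, 33494, 41328 and 27118 in KKAy model and 19927, 18184, 16174, 19550.0 and 17605 in C57BL/6J mice. All KKAy model mice lay above all C57BL/6J mice, and 1 XKA mouse, number 5, fell within the C57BL/6J range. The change was 0.76 (SE 0.16, adjusted p = 0.00317) in KKAy model and 0.72 (SE 0.16, adjusted p = 0.00758) in XKA against C57BL/6J mice.

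Fosl2, which encodes the FOS relative FRA2, read 3112, 2435, 1417, 2179 and 2718 in XKA, 4567, 4128, 2131, 3075 and 3457 in KKAy model and 1069, 1821, 1965, 2874 and 1411 in C57BL/6J mice. The groups overlapped. Its rise of 0.96 (SE 0.28, adjusted p = 0.0308) in KKAy model against C57BL/6J mice was lost in 9 of 25 other settings. Over all 25 the log2 change ran from 0.76 to 1.14 and the adjusted p from 0.00397 to 0.117, with the highest p without rescaling. XKA mice lay between the other groups on this probe set, with -0.55 (-1.14 to 0.04) against KKAy model mice. On the other Fosl2 probe set, 1437247_at, XKA mice averaged 3136, KKAy model mice 2619.9 and C57BL/6J mice 1472, so that XKA stood highest there. It rose by 0.77 (adjusted p = 0.0424 over all probe sets) in KKAy model and by 1.07 (adjusted p = 0.00753) in XKA against C57BL/6J mice. Both probe sets thus rose in the model, and they placed XKA on opposite sides of it.

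The remaining factors are substrates of the MAP kinases. Elk1, an ETS factor that ERK phosphorylates, read 2150.0, 773, 1103, 981 and 1844 in XKA, 1610.4, 1598, 1602, 951 and 1621 in KKAy model and 158, 1171, 588, 292 and 1114 in C57BL/6J mice. The C57BL/6J mean of 665 lay below the array median and the groups overlapped. The change of 1.50 (adjusted p = 0.0472) in KKAy model against C57BL/6J mice was lost in 18 of 25 other settings, with an adjusted p of 0.0214 to 0.992, and it was -0.012 with the mean of its 3 probe sets. Atf2, a substrate of JNK and p38, averaged 32527 ± 3011 in XKA, 34152 ± 2708 in KKAy model and 28845 ± 2846 in C57BL/6J mice, and its change of 0.25 between KKAy model and C57BL/6J mice did not pass (adjusted p = 0.150).

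**Figure D2:**
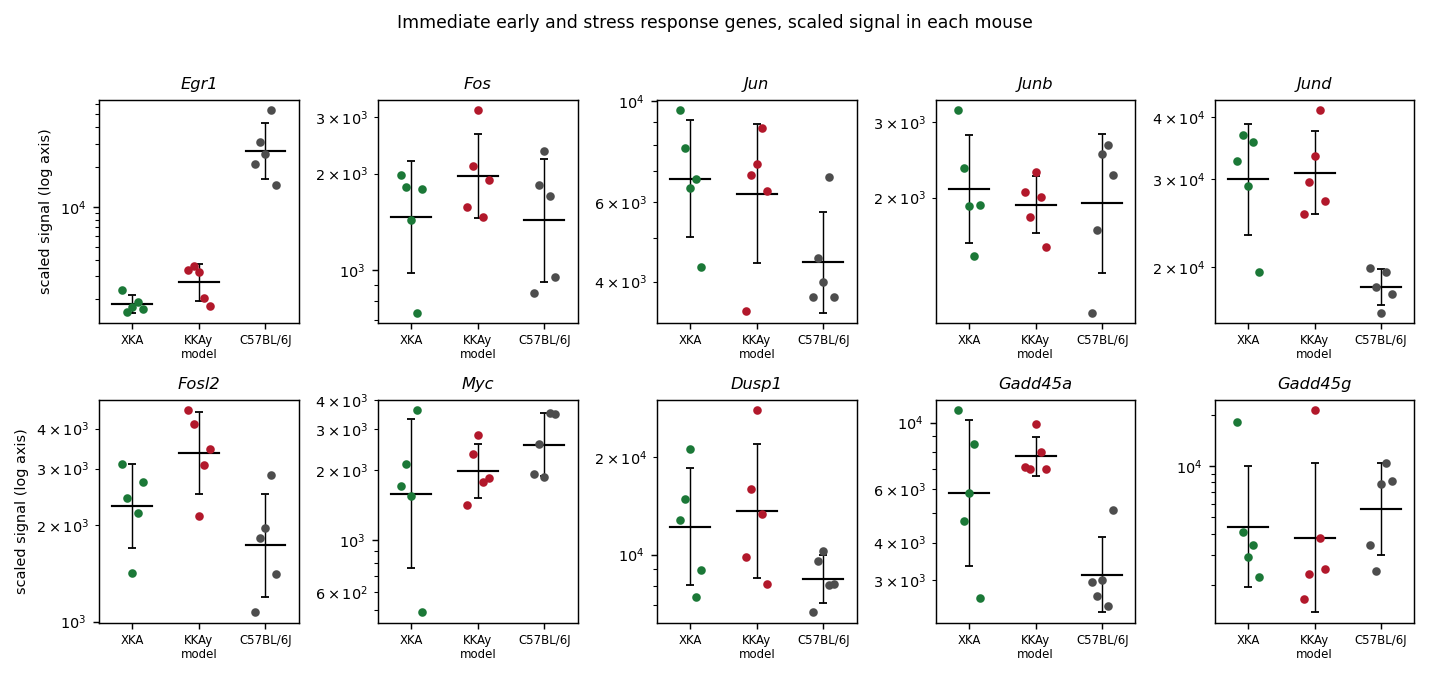
Scaled signal of 10 response genes in each mouse on a log axis that differs between panels. Points are mice 1 to 5 from left to right in each group, the horizontal line is the geometric mean, and the bar spans 1 SD of the log2 values on either side. Egr1 is apart in C57BL/6J mice, Jund and Gadd45a are higher in KKAy model mice, and single high mice stand out for Gadd45g.

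In the ERK branch the genes of a Ras GTPase and of both MEK kinases rose in KKAy model mice. Nras, a Ras GTPase, read 14579, 11623, 9670.0, 9266 and 9646 in XKA, 11519.6, 10283, 14552, 12498 and 7659 in KKAy model and 7272, 7479, 6799, 5698 and 7256 in C57BL/6J mice. Neither KKAy group overlapped with C57BL/6J mice, although KKAy model mouse 5 lay close to them. The change was 0.69 (SE 0.17, adjusted p = 0.00877) in KKAy model and 0.65 (SE 0.17, adjusted p = 0.0186) in XKA against C57BL/6J mice. The second call was lost in 4 of 23 other settings, as deposited (adjusted p = 0.0506), with the mean of the probe sets (0.44, adjusted p = 0.115), without the intensity trend (adjusted p = 0.0561) and without C57BL/6J mouse 4. Between XKA and KKAy model mice it was -0.03, with an interval of -0.38 to 0.31.

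Map2k1 and Map2k2 encode MEK1 and MEK2, the kinases that phosphorylate ERK. Map2k1 read 22492, 26082, 31556, 24894 and 21742 in XKA, 28256, 26876, 33538, 33169.9 and 24845 in KKAy model and 17977, 22848, 16791, 20179.8 and 22059.5 in C57BL/6J mice. All KKAy model mice lay above all C57BL/6J mice, whereas XKA mice overlapped with both. The rise in KKAy model against C57BL/6J mice was 0.55 (SE 0.13, adjusted p = 0.00684), and XKA against C57BL/6J mice gave 0.34 (adjusted p = 0.129).

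Map2k2 read 18084, 19818, 22302, 18360.1 and 17131 in XKA, 23659.6, 23463, 22558, 24222 and 17747 in KKAy model and 20503, 15574, 11908, 14682 and 17644 in C57BL/6J mice. Of the 5 KKAy model mice, 4 lay above every C57BL/6J mouse, and mouse 5 did not. The rise of 0.49 (SE 0.14, adjusted p = 0.0228) was lost in 8 of 25 other settings, among them the values without rescaling (0.30, adjusted p = 0.0608), and over all 25 the adjusted p ran from 0.00621 to 0.0743. In XKA against KKAy model mice the log2 changes of the MEK genes were -0.21 (-0.48 to 0.06) for Map2k1 and -0.22 (-0.51 to 0.07) for Map2k2, and neither difference passed.

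The adaptor Grb2, which brings the exchange factors to activated receptors, averaged 11958 ± 1010.1 in XKA, 13746 ± 3397 in KKAy model and 12442 ± 2204 in C57BL/6J mice, with a change of 0.13 (adjusted p = 0.679) in KKAy model against C57BL/6J mice. The exchange factors Sos1 and Sos2 load Ras with GTP. For Sos1 the KKAy model mice (27857 to 30918) lay above the C57BL/6J mice (20378 to 26779) without overlap, but the change of 0.28 did not pass (adjusted p = 0.113). None of its 4 dimmer probe sets passed. On 1421884_at the change was -0.13, and the others had both group means under the array median, so no fold is given for them. Sos2 read 9477, 12897, 13347, 13089 and 11839 in XKA and 9869, 10777, 8391, 9762 and 9599 in KKAy model mice. Of the 5 XKA mice, 4 lay above every KKAy model mouse, and the change of 0.32 had an unadjusted p of 0.0198 in limma and an adjusted p of 0.456.

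**Figure D3:**
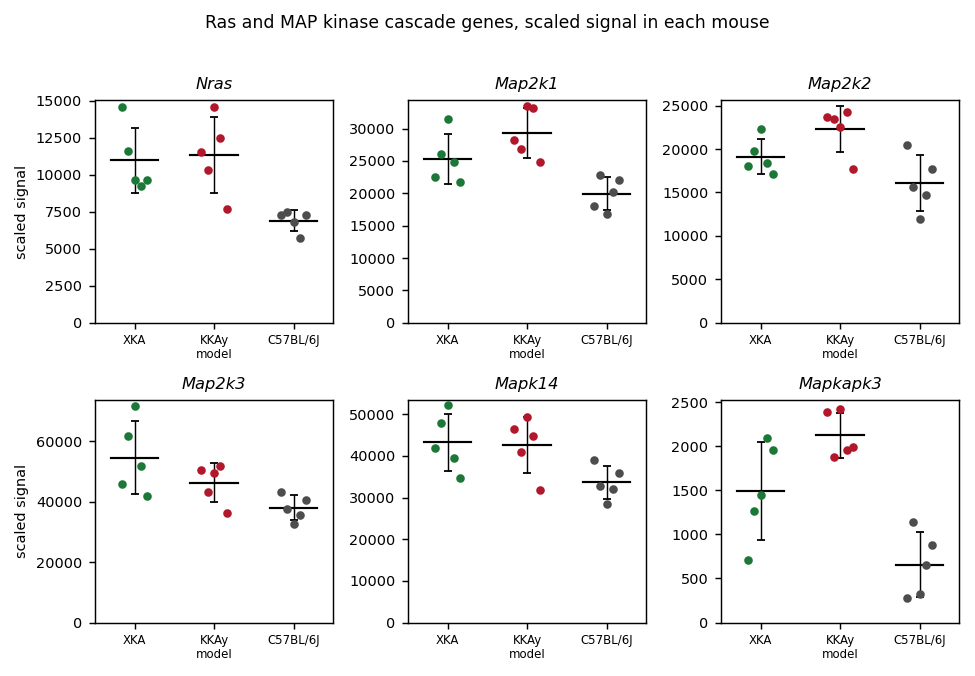
Scaled signal of 6 Ras and kinase genes in each mouse, on linear axes from 0 that differ between panels, with the mean and SD of 5 mice per group. KKAy model mice lie above C57BL/6J mice without overlap for Nras, Map2k1 and Mapkapk3.

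Braf, the Raf kinase that phosphorylates MEK, had 9 probe sets, the most of any of these genes, and they differed. On the brightest, 1435434_at, XKA mice averaged 6042, KKAy model mice 6357 and C57BL/6J mice 7709.5, with a change of -0.28 (adjusted p = 0.228) in KKAy model against C57BL/6J mice. It passed without rescaling (-0.47, adjusted p = 0.0128), with quantile normalization (-0.43, adjusted p = 0.0162) and with the mean of the 9 probe sets (-1.23, adjusted p = 0.00171). On the nearly as bright 1435480_at all KKAy model mice lay below all C57BL/6J mice, with a change of -0.50 that did not pass (adjusted p = 0.0683 over all probe sets). Probe set 1456505_at read 513, 45.9, 157, 162 and 409 in XKA, 397, 429, 224, 381 and 37.9 in KKAy model and 5275, 3146, 3050.2, 2337 and 3582 in C57BL/6J mice. Here all C57BL/6J mice lay above all KKAy mice, and both KKAy means were below the array median. The change was -3.91 (SE 0.68, adjusted p = 0.000769) in KKAy model and -4.15 (adjusted p = 0.000648) in XKA against C57BL/6J mice. Probe set 1458641_at read 1085, 997, 1175, 1240.1 and 1109.7 in XKA, 242, 164, 115, 167 and 1513 in KKAy model and 279.9, 1393, 1316, 978 and 1383 in C57BL/6J mice. Of the 5 KKAy model mice, 4 lay below every XKA mouse there, and the change of 2.11 (SE 0.59) between XKA and KKAy model mice did not pass (adjusted p = 0.248). Strain differences in the sequence under a probe were not tested. Over all 86 probe sets of the 36 genes, 9 were called as higher and 4 as lower in KKAy model against C57BL/6J mice, against 8.45% of all probe sets. The 4 lower ones belonged to Egr1, Mapk8 and Braf, the second of Braf being the dim 1447941_x_at. The counts were 5 higher and 3 lower in XKA against C57BL/6J mice, against 4.78% of all probe sets, and none in XKA against KKAy model mice in limma, against 0.0799%.

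**Figure D4:**
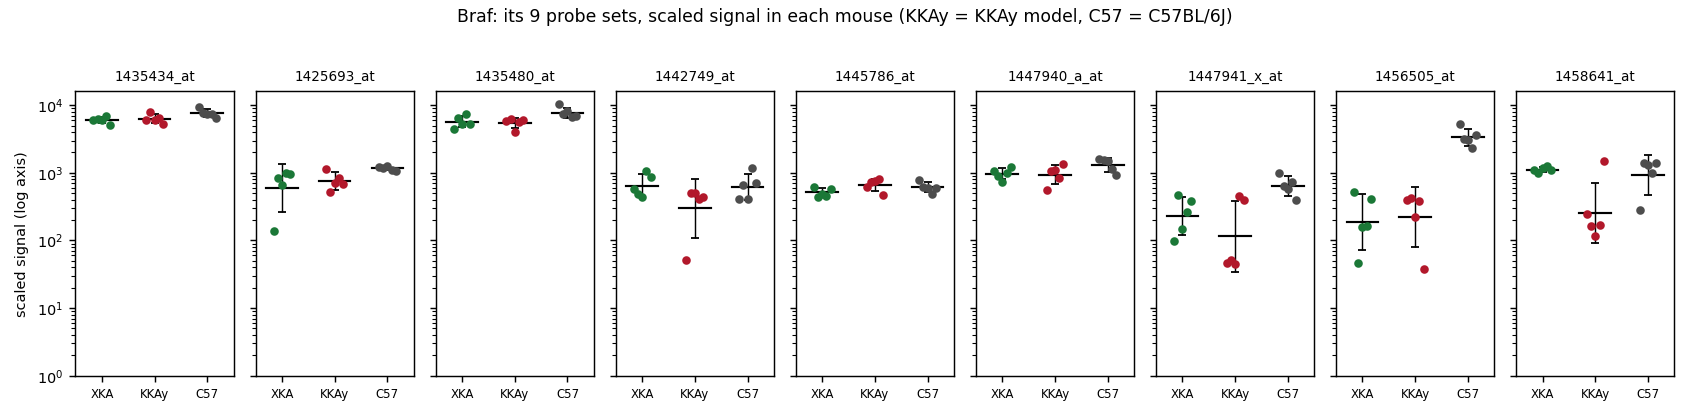
Scaled signal of the 9 Braf probe sets in each mouse on a shared log axis, with the brightest probe set first. Lines are geometric means and bars span 1 SD of the log2 values. Probe set 1456505_at is high in C57BL/6J mice only, and on the bright set 1435480_at KKAy model mice lie below C57BL/6J mice without overlap.

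By their brightest probe sets, no gene of the JNK branch passed the adjusted threshold of limma in any comparison. Map2k4, which encodes MKK4, read 10882, 11975, 13037, 11341 and 10868 in XKA, 11869, 12609, 18078, 13219 and 11002 in KKAy model and 12604, 9126, 9640.1, 7803 and 10716 in C57BL/6J mice. The ranges overlapped, and the change of 0.42 in KKAy model against C57BL/6J mice had an unadjusted p of 0.00960 in limma and an adjusted p of 0.0662. It passed without KKAy model mouse 5 (0.48, adjusted p = 0.0359) and without C57BL/6J mouse 1 (0.51, adjusted p = 0.0257). Mapk8 (JNK1) averaged 7778 ± 962, 7372 ± 851 and 8171 ± 1393 and Mapk9 (JNK2) averaged 15245 ± 3632, 13930.2 ± 1921 and 13577 ± 833 in XKA, KKAy model and C57BL/6J mice. Their intervals in KKAy model against C57BL/6J mice were -0.43 to 0.15 and -0.29 to 0.35 on the log2 scale. The 5 Mapk8 probe sets differed. On 1437045_at Mapk8 read 1732, 2259.8, 1717, 1467 and 1956 in XKA, 1375, 1233, 1106, 1445 and 1217 in KKAy model and 1686, 2009.7, 1886, 2545 and 2430.1 in C57BL/6J mice. KKAy model mice lay below both other groups without overlap there, and the fall of -0.72 against C57BL/6J mice passed (adjusted p = 0.0386 over all probe sets), whereas XKA against KKAy model mice, at 0.51, did not (adjusted p = 0.531). Probe sets 1440856_at and 1457936_at had changes above 0 in KKAy model against C57BL/6J mice (0.39 and 0.60) that did not pass. Map3k1, which encodes the upstream kinase MEKK1, averaged 3921 ± 881 in XKA, 4281 ± 1219.9 in KKAy model and 3413 ± 253 in C57BL/6J mice, with a change of 0.28 in KKAy model against C57BL/6J mice (adjusted p = 0.424). Map3k5 (ASK1) and Map3k7 (TAK1) feed both JNK and p38, and their changes in the same comparison were 0.12 (-0.18 to 0.42) and -0.13 (-0.65 to 0.39). A dimmer Map3k7 probe set, 1426627_at, read 1766, 1845, 939.9, 1899.7 and 1556 in XKA, 1691, 2250.5, 2412, 1905 and 2328 in KKAy model and 841, 1187, 602, 418 and 901 in C57BL/6J mice. All KKAy model mice lay above all C57BL/6J mice on it, and it rose by 1.50 (adjusted p = 0.00243 over all probe sets) in KKAy model and by 1.06 (adjusted p = 0.0419) in XKA against C57BL/6J mice. The other 5 Map3k7 probe sets, the brightest included, were not called.

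In the p38 branch the rise lay at a kinase below p38. Mapkapk3, which encodes the p38-activated kinase MK3, read 709, 1268, 1448, 2096 and 1953 in XKA, 2387, 1875, 2418, 1954 and 1987 in KKAy model and 283, 1145, 319, 657 and 881 in C57BL/6J mice. All KKAy model mice lay above all C57BL/6J mice, XKA mice overlapped with both, and the C57BL/6J mean of 657 was below the array median. The change was 1.89 (SE 0.39, adjusted p = 0.00274) in KKAy model against C57BL/6J mice. The rise of 1.29 (adjusted p = 0.0490) in XKA against C57BL/6J mice was lost in 16 of 23 other settings (adjusted p 0.0180 to 0.487). The change in XKA against KKAy model mice was -0.60 on this probe set (-1.41 to 0.22, adjusted p = 0.715).

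A dimmer Mapkapk3 probe set, 1434815_a_at, read 1134, 181, 601, 743 and 88.2 in XKA, 1159, 1248, 1573, 1247 and 1479.7 in KKAy model and 621, 636, 473, 301 and 367 in C57BL/6J mice. Its change between XKA and KKAy model mice was -1.80, with an unadjusted p of 0.00420 in limma and an adjusted p of 0.327 over all probe sets. Mapkapk2, the closely related MK2, was brighter, at 9431 ± 1048 in XKA, 9529 ± 1452 in KKAy model and 10131 ± 1336 in C57BL/6J mice, with a change of -0.09 (-0.37 to 0.19) between the last 2 groups.

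Map2k3 encodes MKK3, a kinase that phosphorylates p38. It read 45822, 61675, 71601, 51644 and 41689 in XKA, 50441, 43244, 49335, 51845 and 36247 in KKAy model and 43239, 37569, 32699.6, 35682 and 40398 in C57BL/6J mice. XKA mice rose by 0.50 (SE 0.15, adjusted p = 0.0396) against C57BL/6J mice with overlapping ranges, and this call was lost in 11 of 23 other settings (adjusted p 0.00497 to 0.120). KKAy model against C57BL/6J mice gave 0.28 (adjusted p = 0.244) and XKA against KKAy model mice 0.22 (-0.08 to 0.53). Map2k6 (MKK6), the other p38 kinase kinase, was low and scattered, with 993, 2575, 3201, 1988 and 3502 in XKA and 3103, 1921, 419, 1690.1 and 328 in KKAy model mice. The change of 1.07 had an interval of -0.01 to 2.16 and an adjusted p of 0.592.

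Of the p38 kinases, Mapk14 (p38 alpha) was by far the brightest on this array, a level that depends on its probes as well as on its mRNA. It averaged 43251 ± 6908 in XKA, 42624 ± 6751 in KKAy model and 33619.5 ± 3989.8 in C57BL/6J mice, and its change of 0.33 in KKAy model against C57BL/6J mice did not pass (adjusted p = 0.126), whereas without KKAy model mouse 5 it was 0.44 (adjusted p = 0.0273). Mapk12 (p38 gamma) read 936, 710.2, 1177, 1276 and 1329 in XKA, 2912, 2392, 946, 1335 and 2269.6 in KKAy model and 2095, 1646, 1463, 1521 and 2206 in C57BL/6J mice. XKA mice lay below every C57BL/6J mouse and below 4 of 5 KKAy model mice, and the changes of -0.78 against KKAy model (adjusted p = 0.464) and -0.73 against C57BL/6J mice (adjusted p = 0.188) did not pass. The other Mapk12 probe set, 1449283_a_at, did not show this, with changes of 0.38 against KKAy model and 0.02 against C57BL/6J mice and overlapping ranges. Mapk13 (p38 delta) averaged 392 ± 228, 235 ± 152 and 211 ± 105 in XKA, KKAy model and C57BL/6J mice, all under the array median, so no fold is given. Mapk11 (p38 beta) averaged 807 ± 351, 777 ± 439.6 and 1222 ± 427 in the same order and was not called.

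The GADD45 proteins bind the upstream kinase MAP3K4 and connect cellular stress to p38 and JNK. Gadd45a read 10992, 4697, 5855, 8521 and 2621 in XKA, 7116, 7015, 9896, 7979.9 and 7028 in KKAy model and 2963, 2658, 3005, 2461 and 5111 in C57BL/6J mice. All KKAy model mice lay above all C57BL/6J mice, while XKA mice spread across both ranges. The rise of 1.31 (SE 0.29, adjusted p = 0.00476) in KKAy model against C57BL/6J mice remained under every setting but the Dunnett comparisons after Benjamini-Hochberg adjustment (adjusted p = 0.0521). XKA against C57BL/6J mice gave 0.90 (adjusted p = 0.0673), and without XKA mouse 5 it was 1.19 (adjusted p = 0.00407). Gadd45b averaged 2655 ± 726 in XKA, 2603 ± 178 in KKAy model and 2393 ± 728 in C57BL/6J mice and was not called. Its dimmer probe sets went the other way. On 1449773_s_at XKA mice averaged 1079, KKAy model mice 1614 and C57BL/6J mice 2660.0, and the fall of -1.25 in XKA against C57BL/6J mice passed (adjusted p = 0.0172 over all probe sets). On 1450971_at the change in XKA against C57BL/6J mice was -1.78 and did not pass (adjusted p = 0.209).

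Gadd45g was set apart by single mice. It read 18255, 4065, 2921, 3442 and 2206 in XKA, 1654, 2319.7, 21339.6, 3759 and 2482 in KKAy model and 3442, 2418, 7797, 10362 and 8118 in C57BL/6J mice. XKA mouse 1 and KKAy model mouse 3 stood several times above the rest of their groups, and the group changes did not pass (0.22 for XKA against KKAy model and -0.57 for KKAy model against C57BL/6J mice). A setting without those 2 mice was planned because of earlier results. In it KKAy model mice were lower than C57BL/6J mice by a log2 change of -1.19 (adjusted p = 0.0429 in limma, 0.632 with all mice). KKAy model mouse 3 was the highest of its group for this gene, so leaving it out by itself lowers the mean and the spread. That p-value therefore cannot show a fall of Gadd45g. The same 2 mice were highest in acute phase genes. The mean log2 deviation of the 18 acute phase genes was 1.35 in XKA mouse 1 and 1.64 in KKAy model mouse 3, against -0.51 to 0.92 in the other KKAy mice and -1.16 to -0.48 in C57BL/6J mice. The part of the acute phase in the Gadd45g values was not tested.

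The phosphatases that switch MAP kinases off did not pass the adjusted threshold of limma. Dusp1, which encodes MKP-1 and carries the CRE shown above, read 12807, 14875, 21206, 7408 and 8951 in XKA, 9842, 15905, 27877, 13361 and 8129.6 in KKAy model and 6636, 9554, 10247, 8063 and 8127 in C57BL/6J mice. KKAy mice reached higher and scattered more than C57BL/6J mice, and the change of 0.70 (SE 0.29) in KKAy model against C57BL/6J mice had an adjusted p of 0.128 in limma. It passed without KKAy model mouse 5 (0.88, adjusted p = 0.0427). Dusp4 (MKP-2) averaged 1443 ± 613 in XKA, 1220.4 ± 347 in KKAy model and 2052 ± 584 in C57BL/6J mice, with a change of -0.77 in KKAy model against C57BL/6J mice (adjusted p = 0.132). Dusp6 (MKP-3), which acts on ERK, read 19684, 54629.8, 22965, 55220.5 and 27824 in XKA mice, with mice 2 and 4 at about the same high level. KKAy model mice averaged 29842 ± 3774 and C57BL/6J mice 28624 ± 5763, and the interval of XKA against KKAy model mice was -0.36 to 0.65.

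Spread between mice differed widely among the genes. The median ratio of the highest to the lowest mouse of a group was 1.88 in XKA, 1.63 in KKAy model and 1.60 in C57BL/6J mice. In KKAy model mice it ran from 1.11 for Sos1 to 12.9 for Gadd45g. The widest in the other groups were dim genes, with 10.04 for Mapk13 in XKA and 7.42 for Elk1 in C57BL/6J mice. Within each group many of the response genes peaked in the same mouse, though not all did. Of 12 response genes, XKA mouse 1 was highest of its group in 8, KKAy model mouse 3 in 7 and C57BL/6J mouse 4 in 6.

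The study scores a gene by its regulating score (RS), the difference of the KKAy model mean from the C57BL/6J mean divided by the C57BL/6J mean, and by its reverse rate (RR), the share of that difference that is absent in XKA mice. An RR of 0 means no difference between XKA and KKAy model means, 1 means the C57BL/6J level, and a negative value lies further away. On the scaled signals 10 of the 36 genes passed an RS above 0.5 or below -0.33. The 7 higher ones were Nras, Mapkapk3, Gadd45a, Dusp1, Fosl2, Jund and Elk1, and the 3 lower ones were Egr1, Dusp4 and Mapk11. The sign of RS turned on a dimmer probe set for Elk1 (1421896_at, -0.466) and Mapk11 (1421925_at, 0.614). On these dimmer sets the KKAy model and C57BL/6J means lay under the array median. RR was above 0 for 9 of the 10 genes and below 0 for Egr1, and it was above 0 for 14 of the 26 genes inside the thresholds. The KKAy model mean enters both RS and RR. Scatter in that mean alone therefore favours an RR above 0 among genes picked by RS, so the 9 of 10 cannot show a reversal. The share over all genes is not given here. With the mean of the probe sets 10 genes again passed, and RR was above 0 for 7 of them.

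RR depends on group means alone, so each mouse was left out in turn. Fosl2 had an RR of 0.669 (0.524 to 0.781 without 1 mouse), Mapkapk3 0.429 (0.295 to 0.531) and Gadd45a 0.278 (0.0637 to 0.522), and these stayed above 0 in all 15 such runs. They rest on 1 probe set each. On the other Fosl2 probe set, 1437247_at, RR was -0.449, and on the other Mapkapk3 probe set, 1434815_a_at, it was 0.919. Egr1 had an RR of -0.0354 (-0.0461 to -0.0277) and stayed below 0. The sign turned for the other 6 genes, among them Nras, at 0.0785 (-0.130 to 0.284), and Dusp1, at 0.304 (-0.378 to 0.618). The 7 higher genes thus held 3 whose sign stayed, and the 3 lower genes held 1. None of the 10 genes passed limma's test of XKA against KKAy model mice, so these values describe means and were not separated from the spread between mice.

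Of 121 other genes of the pathway that were measured, 19 rose and 2 fell in KKAy model against C57BL/6J mice, none passed in XKA against KKAy model mice (12 at an unadjusted p under 0.05 in limma), and 11 rose and none fell in XKA against C57BL/6J mice. Of all genes 12.8% were called in the first of these comparisons (10.5% higher), 7.37% in the last, and 8.58% passed unadjusted in XKA against KKAy model mice, a share close to 12 of 121. The median change in KKAy model against C57BL/6J mice was 0.28, beside 0.15 over all genes. Pebp1, which encodes the Raf kinase inhibitor protein, read 398570.0, 397283, 382180.0, 381706 and 294765 in XKA, 505432, 427753, 527473, 466060.0 and 332764 in KKAy model and 167816, 177754, 129298, 143990.0 and 160218 in C57BL/6J mice. Both KKAy groups lay above C57BL/6J mice without overlap, with changes of 1.53 (SE 0.16, adjusted p = 1.46e-06) in KKAy model and 1.25 (adjusted p = 2.40e-05) in XKA. Ras regulators and adaptors held 7 of the 19, among them Shc1, an adaptor of receptor tyrosine kinases (1.22, adjusted p = 0.00217), the Ras to Raf scaffold Shoc2 (0.94, adjusted p = 0.00191) and Rasa2, a GTPase-activating protein for Ras (0.87, adjusted p = 0.00462). The call of Shc1 and of Shoc2 was lost with the mean of their probe sets.

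Srf encodes serum response factor, which binds CArG boxes together with ETS factors such as ELK1 and activates immediate early genes. It read 1597, 4059, 1477, 3797 and 2542 in XKA, 773, 2615, 3413, 2584 and 1404 in KKAy model and 5752, 5055, 3865, 4529 and 4847 in C57BL/6J mice. All KKAy model mice lay below all C57BL/6J mice, and the change of -1.32 (SE 0.36, adjusted p = 0.0174) was lost with the mean of its probe sets and with the adjusted Dunnett comparisons. The other gene that fell was the exchange factor Rasgrf1, named after its value was seen (-0.73, adjusted p = 0.0310). Among 38 other immediate early and response genes, 5 rose and 1 fell, a share near the 12.8% of all genes, with a median change of 0.06. The 5 included Sgk1, a kinase gene induced by serum and glucocorticoids, which read 13391, 25179.6, 33915, 17438 and 25500.0 in XKA, 14248, 28352, 72778, 23419.6 and 13158 in KKAy model and 12706, 10603, 9385, 11695 and 11771 in C57BL/6J mice. KKAy model mouse 3 was its highest, and the rise of 1.14 (adjusted p = 0.0301) was lost in 10 of 25 other settings.

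The phosphatase Dusp22 rose in KKAy model against C57BL/6J mice by 0.90 (adjusted p = 6.10e-05) and Phlda3, a p53 target, by 0.85 (adjusted p = 0.0376), the second lost in 11 of 25 other settings. In XKA against C57BL/6J mice the rises after Pebp1 were led by Maff (1.17, adjusted p = 0.0363), a small MAF transcription factor whose call was lost in 10 of 23 other settings, Shoc2 (0.96, adjusted p = 0.00273) and Mknk1 (0.94, adjusted p = 0.00227), which encodes the ERK and p38 substrate MNK1. Shc1 (0.93), the early response gene Ier5 (0.73), the MAP kinase Nlk (0.64) and the phosphatase Dusp3 (0.57) also passed. The Shc1 call was lost in 9 of 23 other settings. With the mean of the probe sets the calls of Shoc2 (0.23), Mknk1 (0.038), Ier5 (0.29) and Dusp3 (0.17) were lost, and those of Nlk and Pebp1 were kept in all 23. No gene of the 13 other MAP3K and Raf kinases passed in limma in any comparison, with 0 at an unadjusted p under 0.05 in XKA against KKAy model mice and 1 in each comparison with C57BL/6J mice, beside 8.58%, 25.1% and 19.3% of all genes for XKA against KKAy model, KKAy model against C57BL/6J and XKA against C57BL/6J.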

How the data were processed

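Liver RNA of 15 mice, 5 per group by the sample labels, was measured on 1 array each. For each probe set the authors deposited 1 linear intensity per array. ArrayTrack's scaling of every array to a median of 1000 is described in the methods, yet the deposited medians lie elsewhere, which is why that scaling was applied here, followed by log2. The steps of probe summarisation and background correction are not given in the sources used here. The file held 45101 probe sets, of which 34958 had a single symbol, 932 several and 9211 none. Tests on probe sets left out 64 controls and covered 45037, and 34754 matched RefSeq by Entrez identifier. A gene with several probe sets took the one brightest by mean log2 signal across the 15 arrays, which gave 18193 genes. The 36 genes had 86 probe sets, 1 to 9 each.

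Groups were compared in 1 fit of all 15 arrays with limma 3.58.1 in R 4.3.3 (eBayes with an intensity trend), two-sided, with Benjamini-Hochberg adjustment over all genes or probe sets, and a gene was called at an adjusted p under 0.05. The median SE of a log2 change was 0.28, and the number of arrays limits the precision. Where both group means lay under the array median, no fold was read. Scripts were tested on simulated data. The members, the pathway lists and the marker lists were chosen with earlier results of these data known. All members could be named, and of other pathway genes up to 8 per comparison, those called with the largest change and a group mean above the array median. Replicate numbers do not pair the mice, with correlations of same-numbered deviations of -0.04 to 0.09. Alternatives were the deposited scale, quantile normalization, the mean of a gene's probe sets, a filter on dim genes, no intensity trend, array weights, a replicate block, the Dunnett comparisons of the methods and leaving out each array.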

Additional observations from a re-analysis of the deposited data

Results flagged for a closer look

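In each group of 5 mice the gap of the highest or lowest mouse to its nearest neighbour was divided by the range of the group, and a share above Dixon's 95% critical value was taken as a mouse standing apart. Of 147 groups of values 12 did so. Dixon's value gives about 1 in 20 groups for normally distributed values. The values here were linear signals, and some of the genes were picked because they were called. That share therefore does not give the number to be expected by chance here. Gadd45g stood apart in both KKAy groups, with XKA mouse 1 (gap share 0.884) and KKAy model mouse 3 (0.893) as the highest. KKAy model mouse 3 was also the highest for Sgk1 (0.745) and Shoc2 (0.769). Among the other high mice were KKAy model mouse 1 for Mapk8 (0.783), KKAy model mouse 4 for Ier5 (0.745), C57BL/6J mouse 5 for Gadd45a (0.795), C57BL/6J mouse 4 for Jun (0.739) and C57BL/6J mouse 3 for Mknk1 (0.847). The low mice were XKA mouse 5 for Pebp1 (0.838), KKAy model mouse 5 for Map2k2 (0.743) and KKAy model mouse 4 for Elk1 (0.966), whose other 4 mice lay within 1598 to 1621.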

How the results depend on the processing

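Egr1, Mapkapk3, Jund, Nras and Map2k1 kept their direction and their call in KKAy model against C57BL/6J mice in all 25 other settings, and Egr1 and Jund did so in XKA against C57BL/6J mice in all 23. Elk1 was the 1 change that turned, to -0.012 with the mean of its probe sets. The count of called genes in KKAy model against C57BL/6J mice was 9, 7 (5 higher, 2 lower) as deposited, 9 (7 higher, 2 lower) with quantile normalization and 5 with the adjusted Dunnett comparisons. Over all 18193 genes the counts were 2336, 2135, 2679 and 1372 in the same order. In XKA against C57BL/6J mice the count was 5, 4 (2 higher, 2 lower) as deposited, 2 without the intensity trend and 3 with the replicate block. The counts over all genes there were 1341, 1465, 881 and 1170. As deposited, the median change of all genes in KKAy model against C57BL/6J mice was -0.04, and 1118 genes were called as higher and 1017 as lower, against 1906 and 430 after scaling. In XKA against KKAy model mice the count was 0, and 2 with the unadjusted Dunnett comparisons, which 946 of all 18193 genes passed. With the replicate block the counts in the first and last of these comparisons stayed at 9 and 0, beside 2082 and 22 of all genes. Dusp1 then passed in KKAy model against C57BL/6J mice (0.70, adjusted p = 0.0290 in limma).

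Leaving out each mouse in turn gave 6 to 11 called genes in KKAy model against C57BL/6J mice. The count was 6 without KKAy model mouse 2 or 4 and 11 without KKAy model mouse 5. Over all 18193 genes, 1914 were called without KKAy model mouse 2, 1651 without mouse 4 and 2773 without mouse 5. In XKA against C57BL/6J mice the range was 2 to 5, with 2 without C57BL/6J mouse 4, where 931 of all genes were called. In XKA against KKAy model mice it was 0 to 0, beside 11 to 61 of all genes. Called probe sets ranged from 8 to 16, from 4 to 9 and from 0 to 1 in the same order, and genes past the RS thresholds from 9 to 11. Counts over all probe sets in these runs are not given here. At stricter RS thresholds, above 1 or below -0.5, 4 of 10 genes were left. The Fosl2 call was lost without KKAy model mouse 1, 2 or 4 or C57BL/6J mouse 1 or 5, and the Map2k2 call without KKAy model mouse 1, 2 or 4 or C57BL/6J mouse 3 or 4. The Elk1 call was lost in 11 of the 15 runs, and in XKA against C57BL/6J mice the call of Mapkapk3 was lost in 12, of Map2k3 in 8 and of Nras in 1 (without C57BL/6J mouse 4), beside 3 other settings that also ended the Nras call. Braf passed as lower without rescaling, with quantile normalization and with the mean of its probe sets. The causes were not tested. Strain, diet and supplier cannot be told apart. The SE of a change ran from 0.11 for Atf2 to 0.68 for Mapk13, beside a median of 0.28 over all genes. The size of change that 5 arrays per group can resolve thus differs by gene.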
